A study of Saccharomyces cerevisiae with 10 samples.

Results

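The transcript profile of the rpb4∆ strain, which lacks the Rpb4 subunit of RNA pol II, was described from its 2 RNA-Seq libraries, chosen by their labels out of the 10 libraries of the series. They were set against the 2 libraries labelled as WT of the rrp6∆ experiment and, side by side, against 2 libraries of the rpb1-84 mutant. The study asked how the assembly of RNA pol II bears on noncoding RNAs (ncRNAs) in budding yeast. Every culture was grown in rich YPD medium at 30 °C to an OD600 of about 0.8, and the reads are QuantSeq 3′ tags, which count the ends of polyadenylated transcripts. The labels give rpb4∆ as strain Y01285, MATa with the alleles his3-Δ1, leu2-Δ0, met15-Δ0 and ura3-Δ0 and with kanMX4 in place of RPB4. The rpb1-84 strain YFN519 is MATα with his3-Δ200, leu2-3,112, trp1-Δ63, ura3-52 and rpb1-Δ187::HIS3, carries the mutant rpb1-84 gene on the multicopy 2µm LEU2 plasmid pYEB220-84, and has a TAP tag with TRP1 on RPB4. The WT strain YFN116 shares that MATα background, its markers and the deletion of chromosomal RPB1, which it replaces with normal RPB1 on the 2µm LEU2 plasmid pYEB220. The study paired rpb4∆ with WT libraries published before, which are not analysed here. Strain background, markers, plasmid and experiment therefore cannot be told apart from the loss of Rpb4, and every difference given below is a difference between these strains. The labels describe the replicates as independent biological cultures, and each strain is 1 genotype with 2 of them.

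RNA pol II is the enzyme that makes mRNAs, most snRNAs and snoRNAs, and the pervasive ncRNAs of yeast. Rpb4 and Rpb7 form a stalk that sits on the core of the enzyme. Yeast cells can live without Rpb4, and the stalk is known for roles in transcription under stress, in 3′ end processing and in the export and decay of mRNAs. The ncRNA classes are named for what exposes them: cryptic unstable transcripts (CUTs) accumulate when the nuclear exosome is lost, stable unannotated transcripts (SUTs) are seen in normal cells, Nrd1-unterminated transcripts (NUTs) appear when Nrd1 is depleted, and Xrn1-sensitive unstable transcripts (XUTs) appear without the cytoplasmic exonuclease Xrn1.

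The deleted gene was nearly silent in rpb4∆, and several marker genes went against the labelled genotype. RPB4 had 7 and 4 counts in rpb4∆, against 33 and 59 in rpb1-84, where the gene carries the TAP tag, and 606 and 508 in WT. The genes that mark the plasmid and auxotrophies of the WT strain separated the strains as labelled: RPO21, which encodes the largest subunit Rpb1, had 532 and 402 counts in rpb4∆, against 7799 and 6129 in WT, and LEU2 had 27 and 17 counts in rpb4∆, against 8613 and 6671 in WT. TRP1 had 243 and 200 counts in rpb4∆, against 20 and 8 in WT, and URA3 had 1 and 0 counts in rpb4∆, against 22 and 24 in WT. MET17, the gene that the allele name met15-Δ0 refers to, nevertheless had 269 and 210 counts in rpb4∆, against 884 and 788 in WT. LYS2, the aminoadipate reductase gene of lysine synthesis, had 3 and 1 counts in rpb4∆, against 1086 and 873 in WT, although no lys2 allele is on the label. The mating-type genes also went against it. All 6 a-specific genes with a row of their own, among them the pheromone genes MFA1 and MFA2, the α-factor receptor STE2 and the protease BAR1, held between 0 and 4 counts in each rpb4∆ library. The α-specific agglutinin gene SAG1 had 175 and 118 counts in rpb4∆, against 2461 and 2243 in WT, and the a-factor receptor gene STE3 had 142 and 106 counts in rpb4∆, against 811 and 689 in WT. Both therefore had counts in the libraries labelled MATa, at a lower level than in the MATα WT (-3.02 and -1.60 on the log2 scale). The main α-factor gene MF(ALPHA)1 had 1 and 1 counts in rpb4∆, against 7 and 4 in WT, so a marker can lack tags even in a MATα strain, and no other library of the series is labelled MATa. The a-specific rows do collect some tags: STE2 had 3 and 1 counts in rpb4∆, against 26 and 35 in the MATα strain rpb1-84, and BAR1 had 2 and 2 counts in rpb4∆, against 15 and 45 in rpb1-84. Both, and the transporter gene STE6, were called lower in rpb4∆ than in rpb1-84, the 3 a-specific genes that could be tested. Both rpb4∆ libraries carry this conflict, so no result could be given without them.

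**Figure D1:**
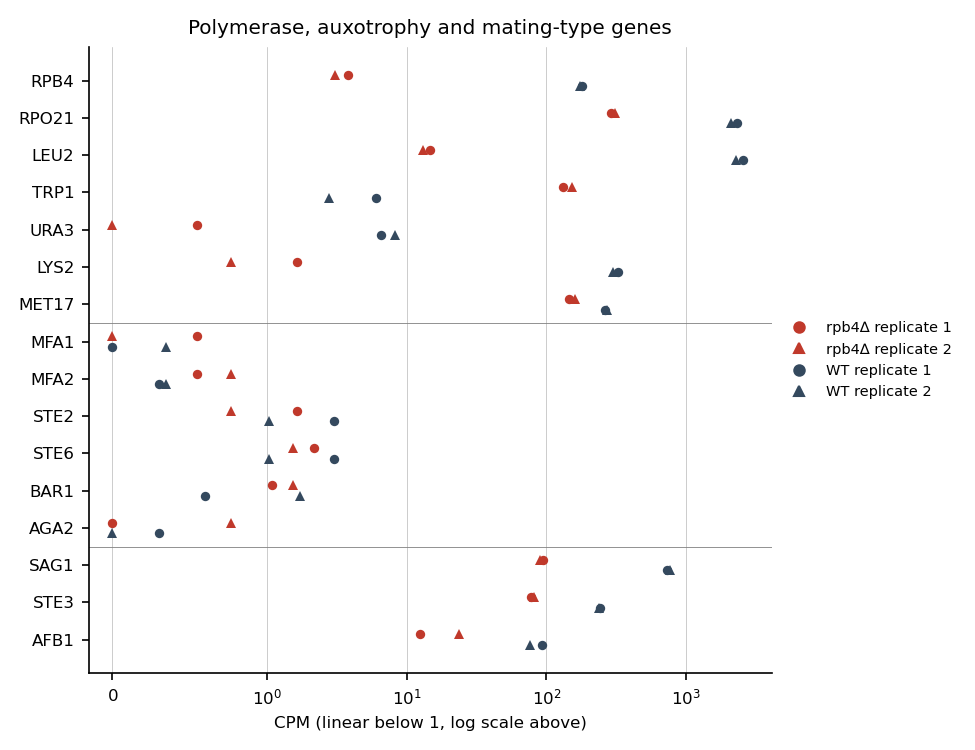
Normalised level (CPM, counts per 1000000 counts after TMM scaling) of RNA pol II, auxotrophy and mating-type genes in each rpb4∆ and WT library, on an axis that is linear below 1 and logarithmic above. Grey lines set off the a-specific genes (middle) and the α-specific genes (bottom), and SAG1 and STE3 stand at 77.3 to 95.3 CPM in rpb4∆ while the a-specific genes stay near 0.

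The rpb4∆ libraries held 1931628 and 1415496 counts, against 3574066 and 7268211 in rpb1-84 and 3165891 and 2727771 in WT, and they were the shallowest of the series. A feature was called when its level differed more than 2-fold between strains at an adjusted p below 0.1 in edgeR's quasi-likelihood test with Benjamini-Hochberg adjustment, the cut-offs that the study used. Of 6497 features tested against WT, 379 were called higher in rpb4∆ (5.83%) and 978 lower (15.1%), so that 27.9% of the calls were higher. With scaling to total counts, which moved the median of all features by -0.18 on the log2 scale, 15.2% of the calls were higher, and the changes given below are relative to the TMM scale. The calls were uneven between classes: 261 ORFs were higher and 402 lower of 4837 tested, and their median log2 fold change was 0.08. From here on, levels of single features are given per library in CPM or, where tags were few, in counts. A value such as 3.59 ± 0.28 after them is the log2 fold change of rpb4∆ over WT with its standard error. The called features named in the text had edgeR adjusted p-values between 1.5e-18 and 0.0809.

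The 12 subunits of RNA pol II, each with a row of its own, split between the stalk, the plasmid-borne subunit and the remainder. None was called higher (where 5.83% of all features were) and 3 were called lower (25%, where 15.1% were), namely RPB4, RPO21 and RPB7. Of these, RPB4 is the deleted gene and RPO21 is carried on the 2µm plasmid in WT. RPB7, which encodes the partner of Rpb4 in the stalk, had 4 and 5 counts in rpb4∆, against 23 and 24 in WT, and its log2 fold change was -1.38 ± 0.45. That call rests on 9 tags in rpb4∆ and was lost in DESeq2, without WT replicate 2 and without rpb4∆ replicate 1. The other 9 subunit genes all had positive log2 fold changes below the threshold, between 0.23 for RPO26 and 0.98 for RPC10. RPB2, the gene of the second-largest subunit, had 425 and 408 CPM in rpb4∆, against 303 and 310 CPM in WT (0.45 ± 0.08). RPB5, shared by the 3 nuclear RNA polymerases, had 225 and 207 CPM in rpb4∆, against 191 and 162 CPM in WT (0.29 ± 0.10). No overlap between the strains was seen for any of the 12 genes, as for 4876 of all 6497 features tested. The neighbours of RPB4 on chromosome X were TIM17, with 220 and 223 CPM in rpb4∆, against 175 and 167 CPM in WT, and YUR1, a mannosyltransferase gene, which was lower with 3.27 and 8.45 CPM in rpb4∆, against 20.6 and 19.4 CPM in WT (-1.87 ± 0.34).

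Among the ORFs with the largest increases, genes of proline breakdown, iron uptake and carbon metabolism stood beside genes of other roles. The rule that named the 12 rows leaves out strain markers such as TRP1 and the mating-type genes. Among these 12, APA1, a diadenosine tetraphosphate phosphorylase, led with a log2 fold change of 4.35 ± 0.30. It had 57.7 and 99.0 CPM in rpb4∆, against 3.28 and 4.15 CPM in WT. PUT1, the proline oxidase, had 37.0 and 42.2 CPM in rpb4∆, against 3.58 and 2.76 CPM in WT (3.59 ± 0.28). FIT3, a cell wall mannoprotein that helps to retain iron-siderophores, had 266 and 278 CPM in rpb4∆, against 27.2 and 30.4 CPM in WT (3.24 ± 0.12). In each of the 3 genes both rpb4∆ libraries lay above both WT libraries, which the rule that named them required. CIT2, the peroxisomal citrate synthase, had 80.6 and 109 CPM in rpb4∆, against 20.6 and 16.6 CPM in WT (2.31 ± 0.18). ADH2, the glucose-repressed alcohol dehydrogenase, had 21.8 and 29.9 CPM in rpb4∆, against 5.97 and 4.15 CPM in WT (2.29 ± 0.29). The other increases named by the rule were those of POP8, a subunit of RNase P and MRP, the riboflavin transporter MCH5, the ubiquitin-conjugating enzyme RAD6, the t-SNARE TLG2 and AHC2 of the ADA histone acetyltransferase complex. With them stood YGL072C, an ORF row without a match in RefSeq, and a row shared by YOL013W-A and the tRNA gene tP(UGG)O1. The log2 fold changes of all these rows ran from 2.04 for AHC2 to 3.42 for the shared row, whose tags cannot be assigned to either gene.

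The largest decreases held transporters, arginine genes and stress genes. TPO2, a polyamine exporter of the plasma membrane, had 3.27 and 5.37 CPM in rpb4∆, against 109 and 119 CPM in WT (-4.77 ± 0.23). HXT4, a hexose transporter, had 1.63 and 2.30 CPM in rpb4∆, against 39.1 and 32.5 CPM in WT (-4.20 ± 0.36), and QDR2, a multidrug transporter, had 1.63 and 1.54 CPM in rpb4∆, against 23.9 and 22.8 CPM in WT (-3.83 ± 0.39). These transporters were thus close to the detection limit in rpb4∆ and well detected in WT. TDH1, the minor glyceraldehyde-3-phosphate dehydrogenase, had 28.9 and 17.7 CPM in rpb4∆, against 327 and 323 CPM in WT (-3.75 ± 0.15). The zinc finger protein gene STP4 had 6.53 and 6.91 CPM in rpb4∆, against 91.4 and 108 CPM in WT (-3.88 ± 0.22). RTC3 had 3.81 and 6.14 CPM in rpb4∆, against 75.5 and 75.7 CPM in WT (-3.97 ± 0.24), and ARO5 had 3.81 and 5.37 CPM in rpb4∆, against 48.4 and 70.5 CPM in WT (-3.71 ± 0.32). With strain markers such as LYS2 and LEU2 left out by the rule, the lowest value was in a row shared by YBR147W and YBR148W. That row had 1 and 3 counts in rpb4∆, against 236 and 211 in WT (-5.75 ± 0.33). A row shared by YOR008W-B and YOR009W had 2 and 0 counts in rpb4∆, against 50 and 55 in WT, a ratio of 0.0379 with an exact 95% counting interval of 0.00453 to 0.14.

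**Figure D2:**
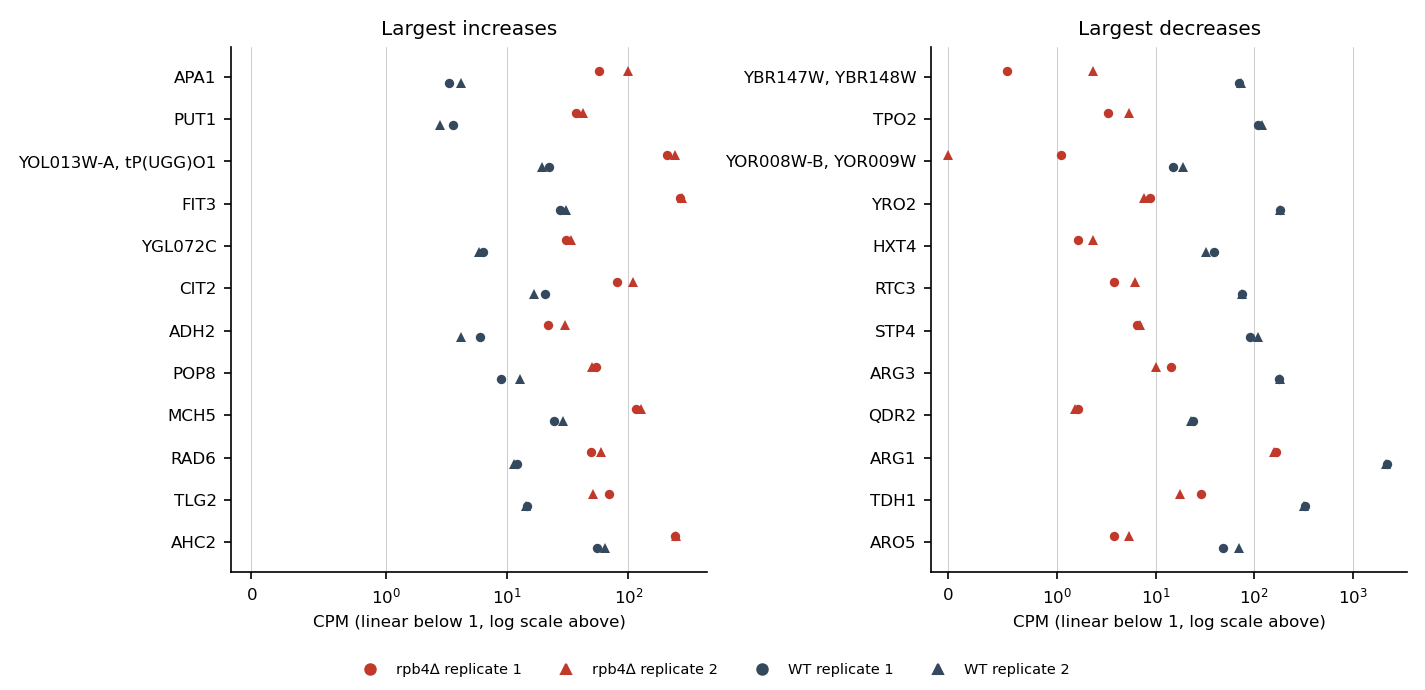
CPM in each rpb4∆ and WT library for the 12 ORF rows with the largest increases (left) and the 12 with the largest decreases (right). They were taken from called rows whose libraries do not overlap, with at least 50 counts in the higher strain. Strain markers and mating-type genes were left out. Axes are linear below 1 and logarithmic above. APA1 stands at 57.7 and 99.0 CPM in rpb4∆ and at 3.28 and 4.15 CPM in WT, and ARG3 at 14.2 and 9.98 CPM in rpb4∆ and at 176 and 181 CPM in WT.

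Genes of the proteasome, the complex that degrades ubiquitinated proteins, rose in part and none fell. Of 37 members tested, 13 were called higher (35.1%, where 5.83% of all features were) and 0 lower. Their median log2 fold change was 0.89, against -0.01 over all features tested, and 33 of 37 were above 0. RPN11, the deubiquitinase of the lid, had 238 and 251 CPM in rpb4∆, against 69.9 and 61.9 CPM in WT (1.89 ± 0.11). PRE7, a β subunit of the core particle, had 351 and 342 CPM in rpb4∆, against 107 and 103 CPM in WT (1.72 ± 0.09), and PUP1, another β subunit, had 563 and 481 CPM in rpb4∆, against 164 and 155 CPM in WT (1.72 ± 0.09). RPN12, also of the regulatory particle, had 174 and 151 CPM in rpb4∆, against 53.5 and 50.5 CPM in WT (1.65 ± 0.12). All 4 genes, picked as the called members with the largest changes, had both rpb4∆ libraries more than 2-fold above both WT libraries. RPN4, the transcription factor that activates proteasome genes, had 173 and 174 CPM in rpb4∆, against 74.1 and 84.3 CPM in WT (1.14 ± 0.11), a call that was lost with total counts. RPN1, the member with the most tags, was just under the threshold with 782 and 609 CPM in rpb4∆, against 366 and 368 CPM in WT (0.93 ± 0.10). Summed over the list, the level was 12302 and 11492 CPM in rpb4∆, against 6787 and 6858 CPM in WT. Against rpb1-84, where 16.8% of all features were higher and 21.3% lower, 9 members were higher in rpb4∆ and 4 lower, with a median of 0.13.

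The proteasome-associated control element, the site that Rpn4 binds, was looked for as GGTGGCAAA on both strands of the 500 bases before each start codon, in the R64 genome from RefSeq, since proteasome genes share it. It was found before 27 of the 37 genes and before 99 of all 6006 ORFs with such a window (1.65%). Of the 27 genes with a match 10 were called higher (median 0.91), and of the 10 without one 3 were (median 0.62). A match describes the letters only. The matches nearest to the start codon before the called genes with the largest changes are shown with the match in capitals (RPN12 holds it on the opposite strand), 5′ to 3′ along the gene, at chrVI:153259-153288 (+ strand), chrII:141150-141179 (+ strand) and chrVI:252398-252427 (+ strand).
RPN11: ggacctccaaGGTGGCAAAttcacaagaaa
PRE7: aaactcaaagGGTGGCAAAaacaagcggta
RPN12: ctacacattaTTTGCCACCcattgaaattg

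Genes of the iron regulon, which Aft1 and Aft2 induce when iron is scarce, also rose in part. Of 25 members tested, 8 were called higher (32%, where 5.83% of all features were) and 0 lower. Their median log2 fold change was 0.54, and 5 were called with scaling to total counts. FIT2, a mannoprotein like FIT3, had 122 and 147 CPM in rpb4∆, against 45.7 and 49.4 CPM in WT (1.49 ± 0.13). SIT1, a siderophore transporter, had 75.1 and 87.5 CPM in rpb4∆, against 19.4 and 21.4 CPM in WT (1.98 ± 0.16). ISU2, a scaffold for iron-sulfur cluster assembly, had 36.5 and 36.1 CPM in rpb4∆, against 14 and 10.7 CPM in WT (1.54 ± 0.22). The members called higher therefore included cell wall mannoproteins, transporters and a mitochondrial scaffold. ARN1, another siderophore transporter, had a log2 fold change of 1.43, and FET3, the multicopper oxidase of high-affinity uptake, of 1.02, a call that was lost with TMM factors from ORFs only, with total counts and without WT replicate 1. ISU1, the member with the most tags, had 115 and 163 CPM in rpb4∆, against 220 and 234 CPM in WT (-0.74 ± 0.12) and was not called. Against rpb1-84, 9 of 25 were higher in rpb4∆ (where 16.8% of all features were) and 1 lower (median 0.76).

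The core of the Aft1 site, TGCACCC on either strand, stood within 500 bases before 19 of the 27 iron genes and before 140 of the 6006 ORFs (2.33%). Of the tested genes with a match 6 of 17 were called higher (median 0.63), and without one 2 of 8 (median 0.41). The stretches before FIT3 (chrXV:1061221-1061250, - strand) and SIT1 (chrV:27458-27487, + strand) both hold it on the opposite strand, in capitals.
FIT3: attctaggaaaGGGTGCAaaaaaatggggt
SIT1: aacacatttgaGGGTGCAatctggttcgtc

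Genes of lysine synthesis had the lowest median of the pathway lists. Of 9 members tested, 8 were called lower (88.9%, where 15.1% of all features were) and 0 higher, and the median log2 fold change was -1.91. LYS2 was almost absent, as given above, and MUD1 and RAD16 near it on chromosome II were also lower (log2 fold changes -1.78 and -1.63), while TEF2 beside it was not called (0.19). LYS1, the saccharopine dehydrogenase of the last step, had 120 and 133 CPM in rpb4∆, against 865 and 891 CPM in WT (-2.80 ± 0.09). LYS20, the homocitrate synthase of the first step, had 59.9 and 73.7 CPM in rpb4∆, against 266 and 318 CPM in WT (-2.15 ± 0.13), and its isozyme gene LYS21 had 230 and 189 CPM in rpb4∆, against 503 and 541 CPM in WT (-1.30 ± 0.10). LYS14, the transcription factor of the pathway, had 34.8 and 36.1 CPM in rpb4∆, against 127 and 151 CPM in WT (-1.97 ± 0.15). Every one of these genes was lower in both rpb4∆ libraries than in both WT libraries. The libraries of the strains did not overlap in all 9 members tested, and in 4876 of all 6497 features tested. LYS9, the member with the most tags, had a log2 fold change of -1.91 ± 0.08. The part of the near absence of LYS2 in the levels of the other genes was not tested. Against rpb1-84, 6 of 10 members were lower in rpb4∆ (where 21.3% of all features were) and 0 higher (median -1.37).

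Arginine and proline genes were called in both directions. Of 19 tested, 8 were lower (42.1%, where 15.1% of all features were) and 4 higher (21.1%, where 5.83% were). Most of the lower genes named here encode steps of arginine synthesis. ARG3, the ornithine carbamoyltransferase, had 14.2 and 9.98 CPM in rpb4∆, against 176 and 181 CPM in WT (-3.84 ± 0.17). ARG1, the argininosuccinate synthetase, had 165 and 158 CPM in rpb4∆, against 2214 and 2177 CPM in WT (-3.76 ± 0.09). ARG7, a mitochondrial ornithine acetyltransferase, had 95.8 and 99.0 CPM in rpb4∆, against 604 and 631 CPM in WT (-2.67 ± 0.10). ARG4, ARG8, the ornithine transporter gene ORT1 and the inositol polyphosphate multikinase gene ARG82 were also lower, of which ARG82 acts in regulation and not in synthesis. The higher genes were the proline breakdown genes PUT1 and PUT2, the arginase gene CAR1 and the proline synthesis gene PRO1. PUT2 had 162 and 190 CPM in rpb4∆, against 45.7 and 50.1 CPM in WT (1.87 ± 0.12), PRO1 had 168 and 178 CPM in rpb4∆, against 73.2 and 74.7 CPM in WT (1.22 ± 0.11), and CAR1 had 370 and 402 CPM in rpb4∆, against 199 and 182 CPM in WT (1.01 ± 0.09). The call of CAR1 was lost with TMM factors from ORFs only, with total counts and without WT replicate 2, and that of ARG82 in DESeq2. Summed over the list, the level was 2966 and 2938 CPM in rpb4∆, against 6202 and 6194 CPM in WT.

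Gcn4, the activator of amino acid synthesis genes, binds TGACTCA, which stood on either strand within 500 bases before 11 of 20 arginine and proline genes, 3 of 10 lysine genes and 241 of the 6006 ORFs (4.01%). In the arginine and proline list 7 of 11 tested genes with a match were called lower (median -1.72), and 1 of 8 without one (median 0.23). In the lysine list all 3 with a match, the strain marker LYS2 among them, and 5 of 6 without one were. Stretches before ARG3 (chrX:268474-268503, + strand), ARG1 (chrXV:218855-218884, + strand), ARG7 (chrXIII:396513-396542, - strand) and LYS1 (chrIX:420968-420997, - strand) are shown with the match in capitals, which in LYS1 is on the opposite strand.
ARG3: gggtcacgtcgTGACTCAtatgctttcttg
ARG1: tgattttttagTGACTCAtgtcgcatttgg
ARG7: gacaggtaggaTGACTCActgcgtaattcg
LYS1: tactaagtcgaTGAGTCAaaaaagactctt

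The other amino acid lists and the nitrogen list also had calls in both directions, several of them near the shares of all features (15.1% lower and 5.83% higher). In histidine, tryptophan and aromatic synthesis 7 of 21 genes were lower (33.3%) and 1 higher, the 1 being the marker TRP1. ARO3 and ARO4, the isozymes of the first step of the aromatic pathway, had log2 fold changes of -1.51 and -1.35, and ARO1, the pentafunctional enzyme, of -1.45. ARO8, an aminotransferase with the most tags in the list, was not called (-0.27). In branched-chain synthesis 4 of 16 were lower (25%), LEU2 of the plasmid among them, and 1 was higher. Without rpb4∆ replicate 1 only 2 were lower. LEU4, which makes the intermediate that activates Leu3, had 196 and 199 CPM in rpb4∆, against 589 and 622 CPM in WT (-1.62 ± 0.09), while LEU1, the next enzyme, had 359 and 445 CPM in rpb4∆, against 123 and 122 CPM in WT (1.70 ± 0.11). In the methionine and sulfur list 5 of 30 were lower (16.7%) and 4 higher (13.3%), with HOM3, the aspartate kinase, at -1.93 and the regulator MET32 at 2.31. Without rpb4∆ replicate 1 the lower calls were 3, and the higher calls were 2 without WT replicate 1, without WT replicate 2, with TMM factors from ORFs only and with total counts. In the nitrogen list 5 of 25 were lower (20%) and 3 higher (12%). There GLT1, the glutamate synthase, had 46.3 and 40.7 CPM in rpb4∆, against 182 and 190 CPM in WT (-2.08 ± 0.13), and GLN1, the glutamine synthetase, had 640 and 640 CPM in rpb4∆, against 242 and 217 CPM in WT (1.48 ± 0.09).

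General stress genes, which Msn2 and Msn4 activate through the stress response element, fell in part and none was called higher. Of 38 tested, 18 were called lower (47.4%, where 15.1% of all features were) and 6 had a value above 0, and the median log2 fold change was -0.82. YRO2, a plasma membrane protein gene, had 8.71 and 7.68 CPM in rpb4∆, against 183 and 183 CPM in WT (-4.46 ± 0.18). HSP12, a small membrane-protecting protein, had 20.7 and 23.0 CPM in rpb4∆, against 259 and 307 CPM in WT (-3.70 ± 0.15). YGP1, a secreted glycoprotein, had 24.5 and 20.7 CPM in rpb4∆, against 159 and 171 CPM in WT (-2.85 ± 0.15), and GPX1, a glutathione peroxidase, had 2.72 and 0.768 CPM in rpb4∆, against 16.1 and 15.9 CPM in WT (-3.03 ± 0.43). The 4 were picked as the called members with the largest changes. In each of them both rpb4∆ libraries lay below both WT libraries, and little of GPX1 was detected in rpb4∆. PEP4, the vacuolar protease with the most tags in the list, had 486 and 523 CPM in rpb4∆, against 525 and 497 CPM in WT and was not called. Summed over the list, the level was 1645 and 1773 CPM in rpb4∆, against 3150 and 3197 CPM in WT. Against rpb1-84, 24 of 40 were lower in rpb4∆ (where 21.3% of all features were) and 1 higher (median -1.51).

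The stress response element was searched as CCCCT on either strand and is short enough to stand before 2047 of the 6006 ORFs (34.1%) within 500 bases. It stood before 33 of the 46 stress genes. Of the tested genes with a match 16 of 29 were called lower (median -1.25), and without one 2 of 9 (median -0.55). The match nearest to the start codon is shown in capitals for HSP12 (chrVI:107054-107083, + strand) and GPX1 (chrXI:390114-390143, - strand).
HSP12: gttccggtcgtcCCCCTcttgatctgaaag
GPX1: cgtatttgctttCCCCTtctgttccctaat

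Heat shock genes, many of which Hsf1 controls, had few calls. Of 33 tested, 5 were lower (15.2%, near the 15.1% of all features) and 1 was higher, or 3 without rpb4∆ replicate 2, and the median log2 fold change was 0.23. SSA4, a stress-induced Hsp70, had 10.3 and 13.8 CPM in rpb4∆, against 65.4 and 65.3 CPM in WT (-2.46 ± 0.20), and HSP31 had 41.9 and 40.7 CPM in rpb4∆, against 148 and 148 CPM in WT (-1.84 ± 0.13). SIS1, the essential Hsp40 co-chaperone, was the member called higher, with 245 and 232 CPM in rpb4∆, against 64.2 and 59.4 CPM in WT (1.95 ± 0.11). HSC82, an Hsp90 gene with the most tags in the list, was not called (0.60).

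In carbon metabolism the shares of called genes were mostly near those of all features (15.1% lower and 5.83% higher). In glycolysis and fermentation 6 of 30 genes were lower (20%) and 3 higher (10%). ADH5, a minor alcohol dehydrogenase, had 4.90 and 5.37 CPM in rpb4∆, against 57.9 and 66.0 CPM in WT (-3.59 ± 0.25), and TDH1 and ADH2 are given above. TDH3, the major glyceraldehyde-3-phosphate dehydrogenase and the feature with the most tags in every library, had a log2 fold change of -0.04, which changed sign under some alternatives. Of 17 genes of trehalose and glycogen 4 were lower (23.5%) and 0 higher, led by the glycogen synthase gene GSY1 with 1.09 and 3.07 CPM in rpb4∆, against 19.1 and 15.6 CPM in WT (-3.15 ± 0.43) and PGM2, a phosphoglucomutase, with 19.6 and 19.2 CPM in rpb4∆, against 57.0 and 58.1 CPM in WT (-1.56 ± 0.18). GLG1, a glycogenin gene with the most tags in that list, was not called, with 5273 and 5590 CPM in rpb4∆, against 3195 and 3135 CPM in WT (0.78 ± 0.06), and the summed level of the list was 5655 and 6017 CPM in rpb4∆, against 3802 and 3713 CPM in WT. In the TCA and glyoxylate list 3 of 29 were lower (10.3%) and 2 higher (6.90%), with PYC2, a pyruvate carboxylase, at -1.91 and CIT2 at 2.31. In the respiratory chain list 7 of 38 were lower (18.4%) and 1 higher, which was 0 with total counts and without WT replicate 2. COX5B, the subunit V form favoured without oxygen, had 43.6 and 38.4 CPM in rpb4∆, against 126 and 127 CPM in WT (-1.61 ± 0.13), and CYC7, the minor cytochrome c isoform, had 2.72 and 0.768 CPM in rpb4∆, against 14 and 8.29 CPM in WT (-2.54 ± 0.52).

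Cell wall genes were called lower in 11 of 46 cases (23.9%, where 15.1% of all features were) and higher in 2 (4.35%, where 5.83% were). EGT2, which acts in the separation of daughter cells, had 45.7 and 46.1 CPM in rpb4∆, against 186 and 181 CPM in WT (-2.0 ± 0.12). PIR5 had 2 and 3 counts in rpb4∆, against 22 and 24 in WT (-2.17 ± 0.53), and SPI1, a stress-induced wall protein that the stress list also holds, had 12 and 9.98 CPM in rpb4∆, against 34.0 and 38.7 CPM in WT (-1.70 ± 0.23). GSC2, the stress-induced glucan synthase subunit, was higher, with 173 and 190 CPM in rpb4∆, against 51.4 and 61.2 CPM in WT (1.69 ± 0.12). PIR1, a wall protein gene that the study used, was below the threshold with 104 and 121 CPM in rpb4∆, against 188 and 167 CPM in WT (-0.67 ± 0.11). Of 15 multidrug resistance genes 5 were lower (33.3%), or 4 in DESeq2, and 0 higher. Among the lower genes were QDR2 and AQR1, a transporter with 43.6 and 36.1 CPM in rpb4∆, against 116 and 110 CPM in WT (-1.49 ± 0.14). The summed level of the multidrug list was nevertheless 1772 and 1798 CPM in rpb4∆, against 1624 and 1659 CPM in WT.

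Genes of the cytosolic ribosome, ribosome biogenesis and tRNA synthetases had positive medians. The share called higher was below the 5.83% of all features in 3 of these lists and above it in the tRNA synthetases. Of 34 translation factor genes 1 was higher (2.94%) and 0 were lower (median 0.20). Mitochondrial ribosomal protein genes instead had a median of -0.11, with 0 higher and 3 lower of 63 tested (4.76%, where 15.1% of all features were). Of 52 small-subunit ribosomal protein genes 1 was higher, RPS0A (1.27 ± 0.08), or 3 without rpb4∆ replicate 2, and 0 were lower, with a median log2 fold change of 0.41. Of 78 large-subunit genes 1 was higher, RPL27A (1.09 ± 0.08), and 1 lower, RPL14A (-1.21 ± 0.35), with a median of 0.35, though RPL27A lost its call with TMM factors from ORFs only and with total counts, and RPL14A in DESeq2 and without rpb4∆ replicate 1. These paralog pairs share sequence, so tags may be split between copies. Summed levels of the small-subunit genes were 150354 and 158072 CPM in rpb4∆, against 112878 and 112508 CPM in WT. Of 129 ribosome biogenesis genes 3 were higher, or 5 without rpb4∆ replicate 2, and 1 was lower (median 0.24), with DIM1, the 18S rRNA dimethylase, at 1.80. Of 17 tRNA synthetase genes 4 were higher (23.5%) and 0 lower (median 0.35), with TYS1 at 1.33 and FRS1 at 1.25, but only 2 were higher without rpb4∆ replicate 1, with TMM factors from ORFs only and with total counts. Histone genes had 2 higher of 11 (18.2%, median 0.58), HHF1 with 188 and 166 CPM in rpb4∆, against 46.3 and 52.5 CPM in WT (1.85 ± 0.12) and HTB1 with 613 and 582 CPM in rpb4∆, against 283 and 270 CPM in WT (1.11 ± 0.08), a call that was lost with total counts. Apart from that of the mitochondrial list, these medians stayed above 0 under each scaling tried.

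Single genes of the other RNA polymerases and of RNA processing were called. Of 9 RNA pol III subunit genes 2 were higher (22.2%, where 5.83% of all features were), RPC11 (1.12 ± 0.11) and RPC17 (1.02 ± 0.14), whose product pairs with the pol III counterpart of Rpb7, and 0 were lower (median 0.73). Of 8 RNA pol I genes 1 was higher (12.5%), RPC40 (1.23 ± 0.10), shared with RNA pol III. Of 16 genes of the Nrd1-Nab3-Sen1 (NNS) and polyadenylation machineries 0 were higher and 1 lower (6.25%, where 15.1% of all features were). The lower gene was the cleavage factor gene CFT2 (-1.03 ± 0.22). NRD1 had 40.8 and 59.1 CPM in rpb4∆, against 80.0 and 76.7 CPM in WT (-0.69 ± 0.16), SEN1 had 175 and 160 CPM in rpb4∆, against 211 and 212 CPM in WT (-0.33 ± 0.10), and NAB3 had 191 and 126 CPM in rpb4∆, against 158 and 155 CPM in WT (0.04 ± 0.13), none of them called. The CTD phosphatase gene RTR1 had 21.2 and 19.2 CPM in rpb4∆, against 18.2 and 21.4 CPM in WT (0.05 ± 0.23). Among 18 genes of the exosome, its cofactors and TRAMP, 1 was higher (5.56%, near the 5.83% of all features), SKI6 (1.04 ± 0.15), a core subunit. Among 33 cytoplasmic decay genes LSM6 was higher (1.34 ± 0.09) and PAB1, the poly(A)-binding protein, and DCP1, of the decapping enzyme, were lower (-1.01 ± 0.08 and -1.14 ± 0.53). In that list 3.03% were thus higher and 6.06% lower, both below the shares of all features. The calls of RPC11, RPC17, CFT2, SKI6, PAB1 and DCP1 lay near the thresholds and were lost under at least 1 alternative.

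**Figure D3:**
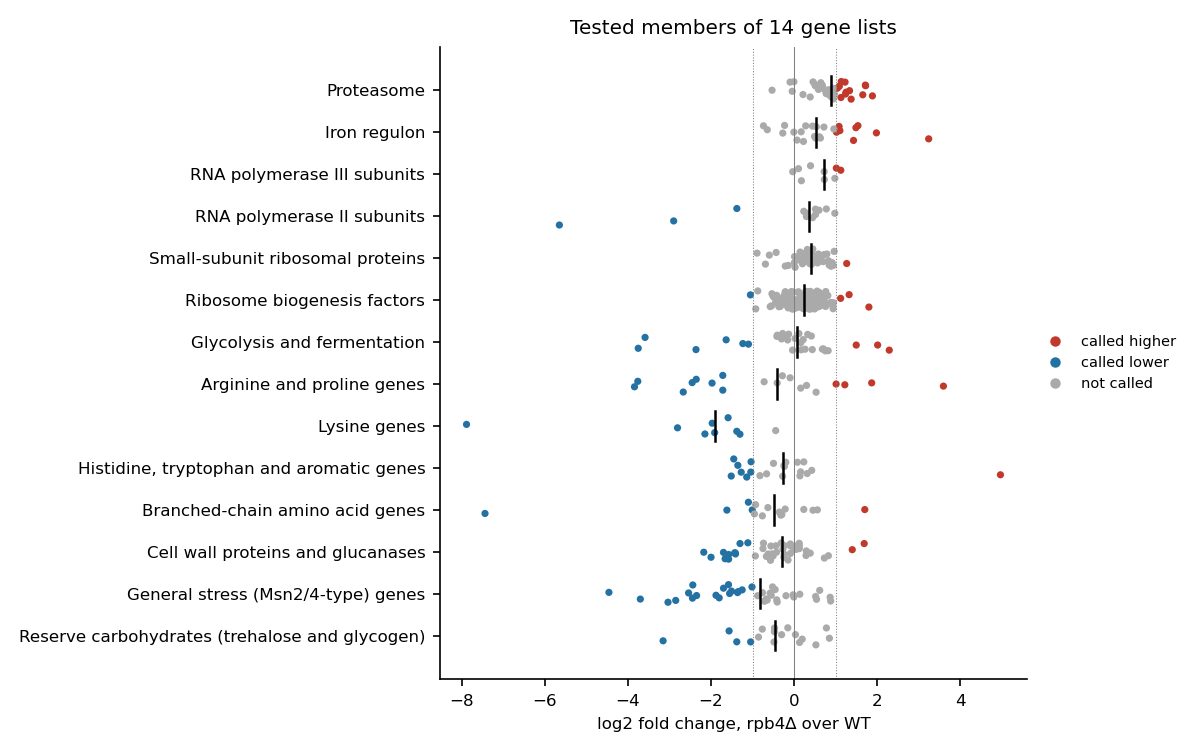
Log2 fold change of rpb4∆ over WT for each tested member of 14 gene lists (1 point per gene, red called higher, blue called lower, grey not called), with the median of the list as a black bar and dotted lines at a 2-fold change. Proteasome members gather right of 0 (median 0.89), lysine genes left of it (median -1.91), and arginine and proline genes lie on both sides.

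The ncRNA classes took a smaller share of the tags in rpb4∆ than in WT. These shares use every member of a class and no scaling factor. CUTs took 0.327% and 0.334% of all counts in rpb4∆, against 0.510% and 0.495% in WT, a ratio of 0.658. SUTs took 0.371% and 0.376% in rpb4∆, against 0.528% and 0.539% in WT (ratio 0.699). Both classes were thus lower in each rpb4∆ library than in either WT library. NUTs took 0.542% and 0.553% in rpb4∆, against 1.05% and 0.964% in WT (ratio 0.544). XUTs took 0.543% and 0.550% in rpb4∆, against 0.895% and 0.906% in WT (ratio 0.607). The sn(o)RNAs, small nuclear and nucleolar RNAs, took 0.174% and 0.195% in rpb4∆, against 0.480% and 0.406% in WT (ratio 0.416). The ORFs took 97.5% and 97.4% in rpb4∆, against 95.4% and 95.5% in WT. The remaining rows, LSR1 among them, took 0.537% and 0.564% in rpb4∆, against 1.16% and 1.22% in WT (ratio 0.463), a ratio that was 0.969 without the 20 features with the most counts. In all 7 classes the libraries of the strains did not overlap, and the exact two-sided permutation test gave p = 0.333, the smallest that 2 libraries against 2 allow. The same shares in rpb1-84 averaged 0.457% for CUTs, 0.507% for SUTs, 1.19% for NUTs, 0.825% for XUTs and 0.248% for sn(o)RNAs, each above the mean of rpb4∆. Annotations of CUTs, NUTs, SUTs and XUTs overlap each other, so the classes are not independent. The study set rpb4∆ against its own isogenic WT and saw no major ncRNA change other than in SUTs. The WT used here is another strain, so the lower shares do not bear on that result.

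**Figure D4:**
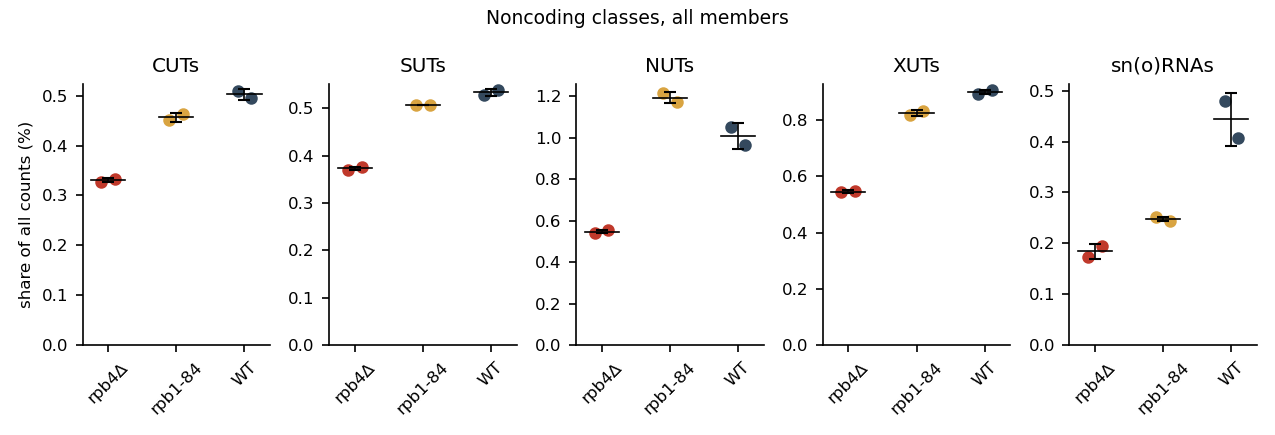
Share of all counts (%) taken by each ncRNA class in each library of rpb4∆, rpb1-84 and WT, with the mean and SD of the 2 libraries in black and axes that start at 0. In each panel the rpb4∆ libraries lie lowest, as with CUTs at 0.327% and 0.334% in rpb4∆, against 0.510% and 0.495% in WT.

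Feature by feature, calls of lower level outnumbered calls of higher level in each ncRNA class, as they did among the ORFs (402 against 261). Of 282 CUTs tested (925 have a row), 125 were lower (44.3%) and 24 higher, with a median log2 fold change of -0.72. The count of higher CUTs dropped to 15 without rpb4∆ replicate 2. Of 337 SUTs tested (of 847), 87 were lower (25.8%) and 26 higher (median -0.37). Of 535 NUTs tested (of 1526), 224 were lower (41.9%) and 30 higher (median -0.79). Of 422 XUTs tested (of 1658), 107 were lower (25.4%) and 32 higher (median -0.28). Among all features 15.1% were lower and 5.83% higher, and among ORFs 8.31% and 5.40%. The shares called higher were 8.51% of CUTs, 7.72% of SUTs, 5.61% of NUTs and 7.58% of XUTs. Without the filter on low counts, the numbers of lower CUTs, SUTs, NUTs and XUTs were 250, 135, 371 and 181, and with DESeq2 the numbers for SUTs, NUTs and XUTs were 57, 145 and 70. Level moved with the calls inside the ORFs as well: in the quartile of ORFs with the lowest mean level the median was -0.24 and 17.9% were lower, and in the highest quartile the median was 0.32 and 4.88% were lower. The part of level in the ncRNA counts was not tested. Differences in low features also rest on few tags, as 249 of the 925 CUTs had no tag in either rpb4∆ library and 47 had none in either WT library.

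**Figure D5:**
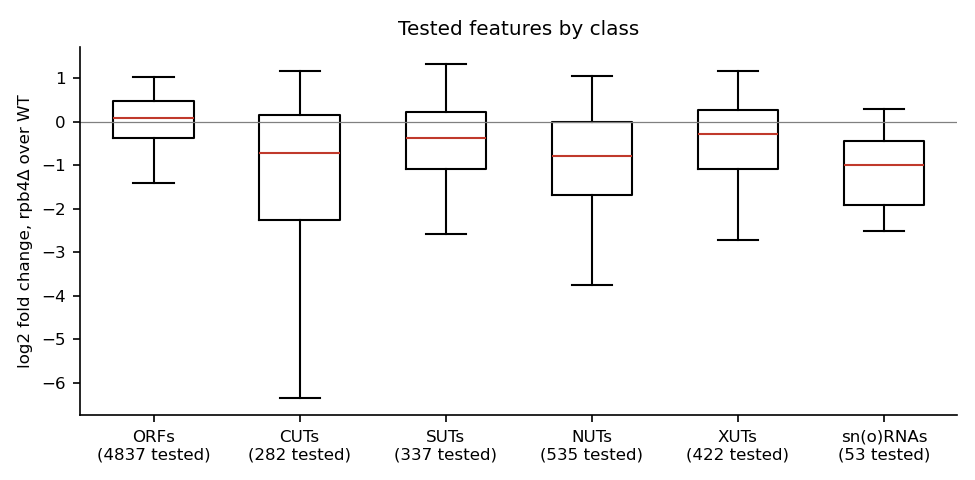
Distribution of the log2 fold change of rpb4∆ over WT among tested features of each class (box: quartiles, red line: median, whiskers: percentiles 5 and 95). The ORF median is 0.08, and those of CUTs, SUTs, NUTs, XUTs and sn(o)RNAs are -0.72, -0.37, -0.79, -0.28 and -1.0.

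Single ncRNAs were lost from the rpb4∆ libraries while others rose. CUT869 had 0 and 0 counts in rpb4∆, against 46 and 61 in WT and was at least 17.9-fold lower, taking 3 counts over the 2 libraries as the floor. CUT542 had 0 and 0 counts in rpb4∆, against 24 and 26 in WT (at least 8.38-fold lower), and CUT474, one of the transcripts the study followed, had 0 and 0 counts in rpb4∆, against 31 and 17 in WT (at least 8.05-fold lower). No tag of these 3 CUTs was seen in either rpb4∆ library. NUT0288 had 0 and 0 counts in rpb4∆, against 92 and 84 in WT (at least 29.5-fold lower), NUT0959 had 0 and 0 counts in rpb4∆, against 81 and 76 in WT (at least 26.3-fold) and NUT1510 had 0 and 0 counts in rpb4∆, against 20 and 14 in WT (at least 5.70-fold). SUT412 had 0 and 0 counts in rpb4∆, against 26 and 23 in WT (at least 8.21-fold lower), SUT803 had 0 and 0 counts in rpb4∆, against 18 and 12 in WT (at least 5.03-fold), and SUT143 had 0 and 1 counts in rpb4∆, against 35 and 44 in WT, a ratio of 0.0252 with a 95% counting interval of 0.000629 to 0.144. Of the XUTs, those listed as 9F213, 16R9 and 8F204 had 0 counts in rpb4∆ and were at least 10.4-fold, 8.55-fold and 5.70-fold lower. These bounds cover counting error only, and a difference in genome sequence between the backgrounds at such a locus was not tested. CUT638, also named in the study, had 0 and 1 counts in rpb4∆, against 9 and 4 in WT and was not tested.

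The ncRNAs with the largest increases had few tags in WT, and SUT240 had more. Of the SUTs, SUT240, which the study followed, had 133 and 143 CPM in rpb4∆, against 33.4 and 42.5 CPM in WT (1.87 ± 0.14), with no overlap between the strains. SUT563 had 28 and 20 counts in rpb4∆, against 8 and 6 in WT (2.74 ± 0.36), SUT056 had 13 and 15 counts in rpb4∆, against 6 and 3 in WT (2.59 ± 0.49), and SUT674 had 17 and 8 counts in rpb4∆, against 7 and 6 in WT (1.91 ± 0.45), a call that was lost without rpb4∆ replicate 1. SUT228 was not called, with 16.9 and 19.2 CPM in rpb4∆, against 23.9 and 26.3 CPM in WT (-0.48 ± 0.22). The CUTs with the largest increases were CUT757 (2.27 ± 0.40), CUT247 (2.07 ± 0.26) and CUT191 (2.04 ± 0.27), and CUT247 had 63 and 31 counts in rpb4∆, against 25 and 19 in WT. Among NUTs they were NUT0847, with 46 and 23 counts in rpb4∆, against 12 and 8 in WT (2.75 ± 0.33), NUT0941 (2.43 ± 0.49) and NUT1027 (2.15 ± 0.27), and among XUTs 7R123, with 54 and 31 counts in rpb4∆, against 11 and 8 in WT (3.13 ± 0.31), 2R226 (2.96 ± 0.37) and 13R2 (2.33 ± 0.47).

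Most of the small nuclear and nucleolar RNAs had lower values in rpb4∆, and about as many were called lower as not. Mature snoRNAs carry no poly(A) tail, and the libraries are primed on A-rich ends. Of 53 tested, 46 had a log2 fold change below 0 and 7 above it. Of these 53, 26 were called lower (49.1%, where 15.1% of all features were) and 1 higher, with a median of -1.0. Of 28 box C/D snoRNAs, which guide methylation, 13 were lower and 1 higher (median -0.93), and of 21 box H/ACA snoRNAs, which guide pseudouridylation, 12 were lower and 0 higher (median -1.61). snR189 had 2.18 and 2.30 CPM in rpb4∆, against 27.5 and 14.5 CPM in WT (-3.23 ± 0.47), and snR41 had 4.90 and 5.37 CPM in rpb4∆, against 36.7 and 28.0 CPM in WT (-2.66 ± 0.30). snR128 had 3.81 and 7.68 CPM in rpb4∆, against 55.5 and 11.8 CPM in WT (-2.66 ± 0.64), with WT libraries that differed from each other several-fold. The snoRNA called higher was snR67, with 40.3 and 47.6 CPM in rpb4∆, against 21.5 and 10.7 CPM in WT (1.40 ± 0.25). The snoRNAs snR5 and snR13, also named in the study, were not called, and snR82 was too low to test. snR5 had 4.36 and 9.21 CPM in rpb4∆, against 6.87 and 5.88 CPM in WT (-0.005 ± 0.40). snR13 had 4.90 and 2.30 CPM in rpb4∆, against 6.87 and 5.18 CPM in WT (-0.66 ± 0.45). Among other noncoding rows, LSR1, the U2 snRNA, took 0.402% and 0.425% of all counts in rpb4∆, against 1.02% and 1.08% in WT (-1.17 ± 0.06). RPR1, the RNA of RNase P and an RNA pol III product, had 101 and 127 CPM in rpb4∆, against 46.9 and 39.7 CPM in WT (1.37 ± 0.14), and the tRNA row tE(UUC)K had 177 and 177 CPM in rpb4∆, against 25.1 and 27.0 CPM in WT (2.76 ± 0.13). LSR1, RPR1 and tE(UUC)K were chosen after their values were seen.

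Set directly against rpb1-84, which has the background of the WT strain and in which the association of Rpb4/7 with the enzyme is impaired, rpb4∆ had more calls than against WT. Of 6618 features tested, 1113 were higher in rpb4∆ (16.8%) and 1409 lower (21.3%). Both comparisons use the same rpb4∆ libraries and are given side by side. The study paired rpb1-84 with WT libraries published before, and not with the WT of the rrp6∆ experiment used here. Experiment may therefore differ between rpb1-84 and this WT as well, and its part in the values below was not tested. Of 256 CUTs tested 46 were higher and 84 lower (median -0.31), and of 569 NUTs 62 were higher and 248 lower (median -0.73). The sn(o)RNAs split, with 11 higher and 21 lower of 55. FIT3 had a log2 fold change of 3.28 over rpb1-84 and 3.24 over WT, ARG3 of -3.80 and -3.84, and SUT240 of 2.14 and 1.87. Other genes had a value near 0 over rpb1-84: HSP12 had -0.27 over rpb1-84 and -3.70 over WT, CIT2 0.11 and 2.31, and PRE7 0.28 and 1.72. LYS1 and LYS20 had positive values over rpb1-84 (0.68 and 0.33) and negative ones over WT (-2.80 and -2.15).

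Across the ORFs, every chromosome held calls, in uneven shares. The share called higher ran from 3.28% on chromosome I to 11.4% on chromosome III, against 5.40% of all ORFs tested. The share called lower ran from 4.28% on chromosome XII to 14.2% on chromosome V, against 8.31% of all ORFs tested. Medians by chromosome ran from -0.01 on chromosome XI to 0.21 on chromosome III. By length, the shortest quartile of ORFs (up to 810 bases) had a median of 0.28 with 8.25% called higher, and the longest quartile (1989 bases and more) a median of -0.06 with 2.38% called higher. Genes with an intron had a median of 0.37 (214 genes), and of 0.23 without the ribosomal protein genes (129 genes), against 0.08 for the 4334 genes with none.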

How the data were processed

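Libraries were made with the QuantSeq 3′ mRNA-Seq kit. Per the labels and the study's methods, the authors checked reads with FastQC, removed adapters, used HISAT2 to align them to R64 of the S288C genome, and obtained tag counts per annotated feature from featureCounts. Tool versions, the strand setting and the treatment of overlapping features are not given in the sources used here, so reads of overlapping or antisense rows may not be told apart. The deposited values are raw counts for 10431 features in each of the 10 libraries, with no normalization. From these counts, edgeR 4.0.16 (R 4.3.3) was run on the 4 libraries of rpb4∆ and WT, and likewise on those of rpb4∆ and rpb1-84, with filterByExpr, TMM factors, the quasi-likelihood test and Benjamini-Hochberg adjustment over all features tested. It was tested on simulated data. The alternatives were TMM factors from ORFs only, size factors of DESeq2, total counts, no filter, DESeq2 1.42.0, a replicate block, all 10 libraries in 1 fit, and each library left out.

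The depth behind the values was 1415496 to 1931628 counts in rpb4∆, 3574066 to 7268211 in rpb1-84 and 2727771 to 3165891 in WT. Tags were not reduced to molecules, so bounds and intervals cover counting error only. A row at 0 in both rpb4∆ libraries was given a bound from 3 counts over the 2 libraries, and with 1 to 3 counts the ratio was given with an exact 95% interval. Class shares were compared with exact permutation tests. Of 5376 ORF rows, 5037 matched RefSeq, and 286 rows join more than 1 gene, so a list member without a row of its own was left out. No set test was run.

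The text names the RNA pol II subunits, strain markers and mating-type genes; the 12 ORF rows with the largest called change in each direction (at least 50 counts in the higher strain, libraries not overlapping, markers left out); 3 rows in each direction of each ncRNA class (at least 20 counts); up to 4 called members of each list described and the member with the most tags; and transcripts the study names. Some genes that this rule names are not reported here. The 46 gene lists, their members and the comparisons were chosen with earlier results of these data known. Upstream windows came from the RefSeq copy of R64, the build the authors used.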

Additional observations from a re-analysis of the deposited data

How the results depend on the processing

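The rpb4∆ libraries were shallow, and low ncRNAs rested on few tags. Scaling to total counts gave 218 features, 135 ORFs, 15 CUTs and 5 iron regulon genes called higher. DESeq2 called 14 CUTs and 17 SUTs higher, and 57 SUTs, 145 NUTs and 70 XUTs lower. Without a filter, 51 XUTs were higher, and 250 CUTs, 135 SUTs, 371 NUTs and 181 XUTs lower. In the fit over all 10 libraries, 37 CUTs, 49 NUTs and 49 XUTs were higher, and 287 CUTs, 143 SUTs, 405 NUTs and 210 XUTs lower. No filter and all 10 libraries also let more features be tested. The causes of the other shifts were not tested. Leaving out 1 library gave 381 to 469 features higher and 862 to 1043 lower, and 15 to 23 CUTs higher. Relative to counts on ORFs, the share ratios were 0.644 for CUTs, 0.685 for SUTs and 0.594 for XUTs, and without the 20 features with the most counts 0.600 for XUTs. Of the 1357 calls against WT, 1033 were made again by DESeq2, 1016 without rpb4∆ replicate 1, 1160 without rpb4∆ replicate 2, 1090 without WT replicate 1 and 1139 without WT replicate 2.

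Samples with the same replicate number deviated together with a correlation of only 0.0206, and no label ties the numbers, so the samples share only a number. A replicate block gave 384 features higher and 979 lower, with 1346 of the 1357 calls made again.

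Uncalled genes near 0 changed sign. NAB3 had -0.048 with ORF-based TMM factors, -0.14 with total counts and -0.30 to 0.34 with 1 library left out, and RTR1 had -0.048, -0.13 and -0.080 to 0.16 under the same alternatives. PEP4 had 0.041 without a filter, 0.078 with all 10 libraries and -0.060 to 0.047 with 1 library left out, and TDH3 had 0.026, 0.062 and -0.074 to 0.066. The snoRNA snR5 had 0.061 without a filter, 0.050 in DESeq2, 0.0036 with the block, 0.098 with all 10 libraries and -0.50 to 0.54 with 1 library left out. Among the 155 named and tested features, 1636 alternative values kept direction and call, 40 lost the call, 5 gained it and 20 changed sign.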
